A study of Mus musculus with 48 samples.

Results

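Angiopoietin-2 (Angpt2), endocan (Esm1), apelin (Apln), the apelin receptor (Aplnr), the VEGF receptors Flt1 and Kdr, the angiopoietin receptor Tek, placental growth factor (Pgf), neuropilin-1 (Nrp1) and the Notch ligand Dll4 were followed in mouse cortex through the first week after permanent occlusion of the middle cerebral artery (MCAO). These 10 genes were chosen by name as ligands and receptors of vessel growth, out of 46983 genes counted, and all 10 were among the 19970 that were tested, for which over 10 counts were required in all libraries together. The 48 bulk RNA-seq libraries came from brains of male C57Black/6 mice aged 3 months. Control libraries (n = 4) were made from intact cortical tissue. In MCAO mice the artery was coagulated and cut, and in sham mice the same surgery was done without the coagulation. MCAO (n = 5, but n = 4 at 24 h) and sham (n = 4) libraries were made at 3 h, 12 h, 24 h, day 3 and day 7. The lesions of this model are small, and the sampled piece held affected and non-affected tissue, so that a level is an average over both. The study describes the replicates of its bulk data as mice, while the labels give replicate letters only, and p-values were read as measuring the spread between mice.

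New vessels sprout when endothelial cells respond to VEGF through Kdr, while Flt1 binds VEGF-A and Pgf and can act as a decoy, and Nrp1 is a co-receptor shared with semaphorins. Angpt1 keeps vessels stable through the receptor Tek (also called Tie2), and Angpt2, stored and released by endothelial cells, competes with it. Leading tip cells of a sprout express Dll4, Esm1, Apln and Angpt2, and Dll4 signals to Notch receptors on neighbouring stalk cells, which express Aplnr more often. In the ischemic brain these genes are known as part of the response of vessels at the border of the lesion.

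Promoters are shown for 3 members, Esm1 and Dll4 because their levels after MCAO stood furthest from sham at 12 h and 24 h next to those of Angpt2, and Kdr because it came closest to a call on day 3. The bases are the 250 upstream of the transcription start from RefSeq on GRCm38.p6, written 5′ to 3′ on the strand of the gene. Capitals mark GCGTG or its reverse complement CACGC, one of the 2 spellings searched for the core that hypoxia-inducible factors bind. Esm1 is at chr13:113209409-113209658 on the plus strand, Dll4 at chr2:119325534-119325783 on the plus strand and Kdr at chr5:75978456-75978705 on the minus strand.
Esm1: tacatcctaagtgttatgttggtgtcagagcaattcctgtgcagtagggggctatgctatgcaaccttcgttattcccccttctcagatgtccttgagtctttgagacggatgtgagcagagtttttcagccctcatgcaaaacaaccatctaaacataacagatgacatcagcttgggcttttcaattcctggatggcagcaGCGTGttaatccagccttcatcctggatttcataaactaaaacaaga
Dll4: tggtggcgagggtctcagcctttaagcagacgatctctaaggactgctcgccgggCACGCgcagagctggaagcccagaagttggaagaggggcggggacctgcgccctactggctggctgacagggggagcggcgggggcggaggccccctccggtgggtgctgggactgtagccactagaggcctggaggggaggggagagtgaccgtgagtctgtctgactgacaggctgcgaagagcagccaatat
Kdr: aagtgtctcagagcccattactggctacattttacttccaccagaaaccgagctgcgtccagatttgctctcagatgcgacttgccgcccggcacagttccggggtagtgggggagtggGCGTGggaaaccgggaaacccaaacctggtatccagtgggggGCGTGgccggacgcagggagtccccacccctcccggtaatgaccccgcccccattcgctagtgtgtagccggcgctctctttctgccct

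Promoters were matched for 8 of the 10 members (Angpt2 and Aplnr were not matched). On either strand GCGTG was found in 6 of the 8, those of Esm1, Flt1, Kdr, Pgf, Nrp1 and Dll4, with 2 copies in Kdr, and in 28.2% of 32851 promoter windows of the same length. The second spelling, ACGTG, was in 0 of the 8 and in 16.6% of all windows. TGGGAA, the core bound by the Notch effector Rbpj, was in Kdr alone among the 8, where its first letters overlap the end of a GCGTG, and in 21.6% of all windows. Base composition was not matched in these shares, and a match says only that the letters are there.

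The libraries held 1522668 to 2826735 counts on genes (median 1935856). The kit reads each transcript near its 3′ end, and levels are given as CPM, counts scaled to a common library size after TMM normalization, so that they can be set side by side between libraries for 1 gene. Levels of different genes were not compared. Over all 48 libraries Flt1, Nrp1, Kdr and Apln had 2546 to 10753 counts, and Tek, Pgf, Angpt2 and Dll4 had 214 to 399. The lowest were sparse, Esm1 with 70 counts and 21 libraries at 0 and Aplnr with 45 counts and 31 libraries at 0. In bulk tissue, fewer cells of a type and less RNA per cell cannot be told apart.

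The counts were tested with edgeR by quasi-likelihood, with p-values adjusted after Benjamini and Hochberg over all genes. A call needed an adjusted p below 0.01 and a log2 fold change beyond 0.58 in either direction. Against the sham of the same time, 0 of the 10 members were called at 3 h, 12 h, 24 h and day 3, and 1 was called on day 7, Nrp1, which was higher. Over all genes tested the shares called were 0.11% at 3 h, 0.411% at 12 h, 0.0901% at 24 h, 4.02% on day 3 and 3.5% on day 7. With the 5 times averaged, Angpt2 alone was called, higher after MCAO, against 4.89% of all genes. This average is made of the same libraries as the single times. Unadjusted p-values under 0.05 were held by 0 members at 3 h, 4 at 12 h, 3 at 24 h, 6 on day 3, 2 on day 7 and 5 in the average. Of all genes, 8.45%, 14.6%, 8.8%, 21.6% and 23.5% from 3 h to day 7 and 26.4% in the average had such a p, so that the count of day 7 was near the background. Estimates were above 0 for all 10 members on day 3, where their median log2 fold change was 0.91 against 0.01 over all genes, although Flt1 turned to -0.05 with scaling to the spike-ins, which moved the median of all genes to -0.22. The medians at the other times were 0.13 at 3 h, 0.41 at 12 h, 0.28 at 24 h and 0.31 on day 7. Members at 3 counts or fewer in both groups were left out. Those against a sham at 0 were set at their fold over a floor of 3 counts.

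**Figure D1:**
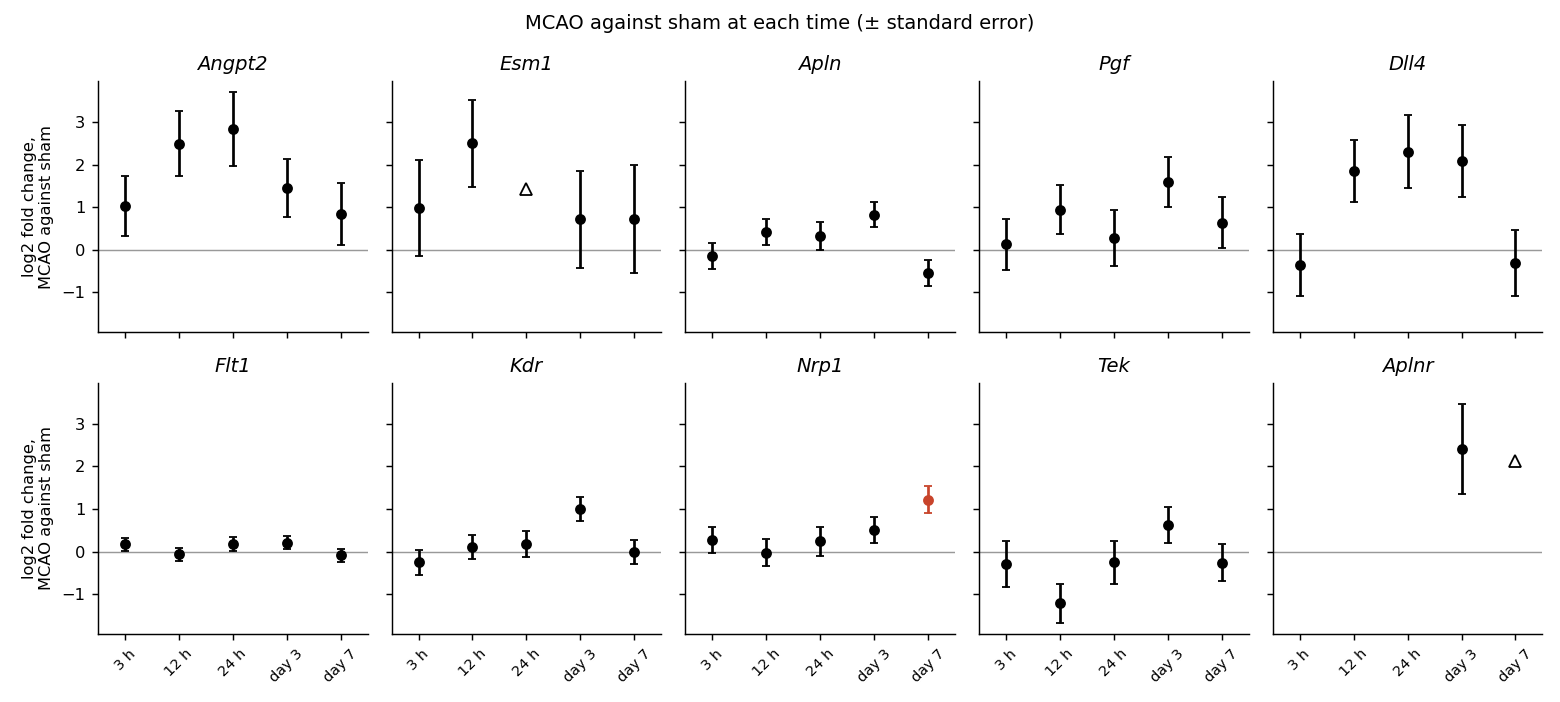
Log2 fold change of MCAO against the sham of the same time (vertical axis) at the 5 times (horizontal axis) for each member, with bars of 1 standard error. Red marks the only call, Nrp1 on day 7 (1.21). Open triangles, where sham was at 0 counts, are folds over a floor of 3 counts. Points for Aplnr at 3 h, 12 h and 24 h are left out because both groups were at or under 3 counts.

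Angpt2 (ENSMUSG00000031465.6, chromosome 8 of GRCm38 from 18690263 to 18741562, minus strand) encodes the ligand that loosens vessels. At 12 h its levels after MCAO were 2.60, 1.94, 12.0, 8.82 and 4.76 CPM, and those of sham 1.12, 1.04, 1.48 and 0.39 CPM. At 24 h they were 2.55, 3.74, 6.78 and 9.78 CPM after MCAO and 2.38, 0.63, 0 and 0 CPM in sham. At both times every MCAO library lay above every sham library in CPM. Such separation upward was found in 2.03% of all genes at 12 h and in 3.73% at 24 h. In counts the nearest libraries were close. At 12 h the lowest MCAO library (B) and the highest sham library (C) both held 4 counts. At 24 h MCAO replicate A held 6 counts and sham replicate A 4. The log2 fold change was 2.49 (standard error 0.76, edgeR adjusted p = 0.0842) at 12 h and 2.83 (standard error 0.87, edgeR adjusted p = 0.204) at 24 h, neither of which was called. Leaving out sham replicate A, the highest of its group, moved the value at 24 h to 4.46, and leaving out each other library gave 2.40 to 3.07. On day 3 the levels were 1.60, 1.81, 9.99, 1.46 and 14.1 CPM against 1.45 to 2.81 CPM in sham. Replicates C and E held the high values and the other 3 lay within the sham range. Here the log2 fold change was 1.46 and without replicate E 0.81, neither called. On day 7 the MCAO libraries held 1.02 to 7.73 CPM and sham 0 to 3.82 CPM, which overlap. Averaged over the 5 times the log2 fold change was 1.73 (standard error 0.34, edgeR adjusted p = 0.000188), and leaving out any 1 library kept it called, with an adjusted p from 5.45e-05 to 0.000457. Control lay between sham and MCAO at these times, at 2.68 ± 1.48 CPM (SD, n = 4). Against control the log2 fold change of Angpt2 was 1.13 at 12 h (edgeR adjusted p = 0.419) and 1.05 at 24 h (edgeR adjusted p = 0.622). In the means, MCAO lay above control and sham below it, at 1.01 ± 0.45 CPM at 12 h and 0.75 ± 1.12 CPM at 24 h (SD, n = 4 each). Neither MCAO nor sham was called against control at these times. The sham groups held 9 and 5 counts, and sham against control at 12 h had an edgeR adjusted p of 0.924.

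Tek (ENSMUSG00000006386.15, chromosome 4 from 94739289 to 94874976, plus strand), the receptor that Angpt2 and Angpt1 share, was not called at any time. At 12 h, when Angpt2 stood apart from sham, Tek was at 2.60, 0.97, 3.13, 2.94 and 2.38 CPM after MCAO and at 5.03, 6.78, 1.85 and 8.96 CPM in sham. Sham replicate C lay within the MCAO range. Its log2 fold change of -1.21 (standard error 0.46, edgeR adjusted p = 0.184) did not pass. On day 3 the MCAO levels were 3.91 to 11.9 CPM (mean 7.00 ± 3.11, SD, n = 5) and the sham levels 1.87 to 7.01 CPM, a log2 fold change of 0.62 (edgeR adjusted p = 0.413). At 3 h both operated groups were low, 1.72 ± 0.75 CPM after MCAO (SD, n = 5) and 2.15 ± 1.84 CPM in sham (SD, n = 4), beside 4.51 ± 1.66 CPM in control (SD, n = 4). Tie1, the co-receptor of Tek, had a log2 fold change of 1.52 on day 3 (standard error 0.42, edgeR adjusted p = 0.0153), short of the threshold. Angpt1 was at 12.4 ± 3.31 CPM on day 3 after MCAO (SD, n = 5) and 13.3 ± 5.08 CPM in sham (SD, n = 4), a log2 fold change of -0.09 (edgeR adjusted p = 0.944). The lone call among 4 tested angiopoietin and Tie partners (Angpt4 was not tested) was Angptl4, an angiopoietin-like protein that inhibits lipoprotein lipase, which rose on day 3 by 3.50 on the log2 scale (standard error 0.80, edgeR adjusted p = 0.0027).

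Kdr (ENSMUSG00000062960.10, chromosome 5 from 75932827 to 75978458, minus strand), the main signalling receptor for VEGF-A, stood out on day 3. Its levels after MCAO were 21.9, 59.7, 77.4, 46.4 and 63.0 CPM, and those of sham 29.0, 31.9, 28.0 and 18.3 CPM. Replicate A lay inside the sham range and the other 4 above all sham libraries. The log2 fold change was 1.00 (standard error 0.28, edgeR adjusted p = 0.0153), just short of a call. Without replicate A it was 1.20 and was called (edgeR adjusted p = 0.00113), while leaving out any other library of the comparison gave 0.84 to 1.09 with no call (edgeR adjusted p up to 0.0885). Among the 11 groups, the day 3 MCAO mean of 53.7 ± 20.9 CPM (SD, n = 5) was followed by 32.8 ± 6.07 CPM at 12 h after MCAO, a gap that barely passed the larger of their SDs, and no other neighbours in the order differed by more than their spread. The lowest mean was that of MCAO at 3 h, 17.6 ± 4.76 CPM (SD, n = 5), and the control mean was 31.9 ± 9.88 CPM (SD, n = 4). On day 7 Kdr was at 23.9 to 40.7 CPM after MCAO and 24.2 to 37.2 CPM in sham, a log2 fold change of -0.02 (edgeR adjusted p = 0.982).

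Flt1 (ENSMUSG00000029648.13, chromosome 5 from 147561604 to 147726011, minus strand), a receptor for VEGF-A, VEGF-B and Pgf, stayed within a narrow range. Its group means ran from 98.1 ± 14.7 CPM on day 7 after MCAO to 134 ± 20.5 CPM on day 3 after MCAO (SD, n = 5 each), with control at 105 ± 9.25 CPM (SD, n = 4). No neighbours in this order differed beyond their spread. The log2 fold changes against sham lay between -0.09 on day 7 and 0.21 on day 3 (standard errors 0.15 to 0.16), and the average was 0.08 (standard error 0.07, edgeR adjusted p = 0.534).

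Nrp1 (ENSMUSG00000025810.8, chromosome 8 from 128358604 to 128503363, plus strand), the co-receptor, was called on day 7 with a log2 fold change of 1.21 (standard error 0.32, edgeR adjusted p = 0.00998). Its levels were 54.2, 38.2, 246, 60.5 and 53.2 CPM after MCAO and 40.6, 42.5, 43.1 and 29.7 CPM in sham. A single library, replicate C, held 413 counts of Nrp1 and lay far above the rest, and replicate B lay within the sham range. Without replicate C the log2 fold change was 0.40 (edgeR adjusted p = 0.323), so the call rested on that library. In the same library the 6 fibroblast markers summed to 5491 CPM, against 169.6 to 505.7 CPM in the other day 7 MCAO libraries and 42.0 to 93.8 CPM in sham. The 8 microglia and macrophage markers summed to 1856 CPM there, against 500.2 to 762.2 CPM in the other 4, while its endothelial sum of 683.6 CPM lay among the 626.5 to 687.7 CPM of the others. Their part in the result was not tested. On day 3 Nrp1 was at 44.8, 64.6, 87.9, 92.3 and 109 CPM after MCAO and at 59.1, 48.5, 56.5 and 59.5 CPM in sham. All but replicate A lay above the sham libraries. The log2 fold change there was 0.51 (standard error 0.30, edgeR adjusted p = 0.334).

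Pgf (ENSMUSG00000004791.6, chromosome 12 from 85166635 to 85177790, minus strand), the ligand of Flt1, was at 5.87, 1.81, 8.49, 8.30 and 11.9 CPM on day 3 after MCAO. Sham was at 0, 4.62, 2.80 and 2.34 CPM. All but replicate B lay above every sham library. The log2 fold change was 1.60 (standard error 0.58, edgeR adjusted p = 0.0816), and in the average over the times it was 0.72 (standard error 0.27, edgeR adjusted p = 0.0662). At 12 h replicates C and D held 9.91 and 10.6 CPM while the other 3 held 0.97 to 4.17 CPM, against 1.95 to 3.91 CPM in sham.

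Vegfa, the ligand of Kdr and Flt1 and a gene that hypoxia induces, was at 59.7 ± 10.4 CPM at 3 h after MCAO (SD, n = 5) and 41.7 ± 5.91 CPM in sham (SD, n = 4), and the log2 fold change was 0.51 (standard error 0.21, edgeR adjusted p = 0.45). On day 3 the order was the other way, 36.6 ± 6.39 CPM after MCAO (SD, n = 5) and 49.1 ± 18.7 CPM in sham (SD, n = 4), with a log2 fold change of -0.43 (standard error 0.21, edgeR adjusted p = 0.214). Neither was called, nor was Vegfb, a ligand of Flt1, at 52.3 ± 7.07 CPM on day 7 after MCAO (SD, n = 5) and 69.3 ± 3.90 CPM in sham (SD, n = 4), with an edgeR adjusted p of 0.103. Of the 6 VEGF family partners none was called at a single time, and Nrp2, the second neuropilin, was higher in the average by 0.81 on the log2 scale (standard error 0.19, edgeR adjusted p = 0.00178). None of 12 semaphorins and plexins that partner with neuropilins was called at any time, and their medians lay between -0.16 and -0.01.

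**Figure D2:**
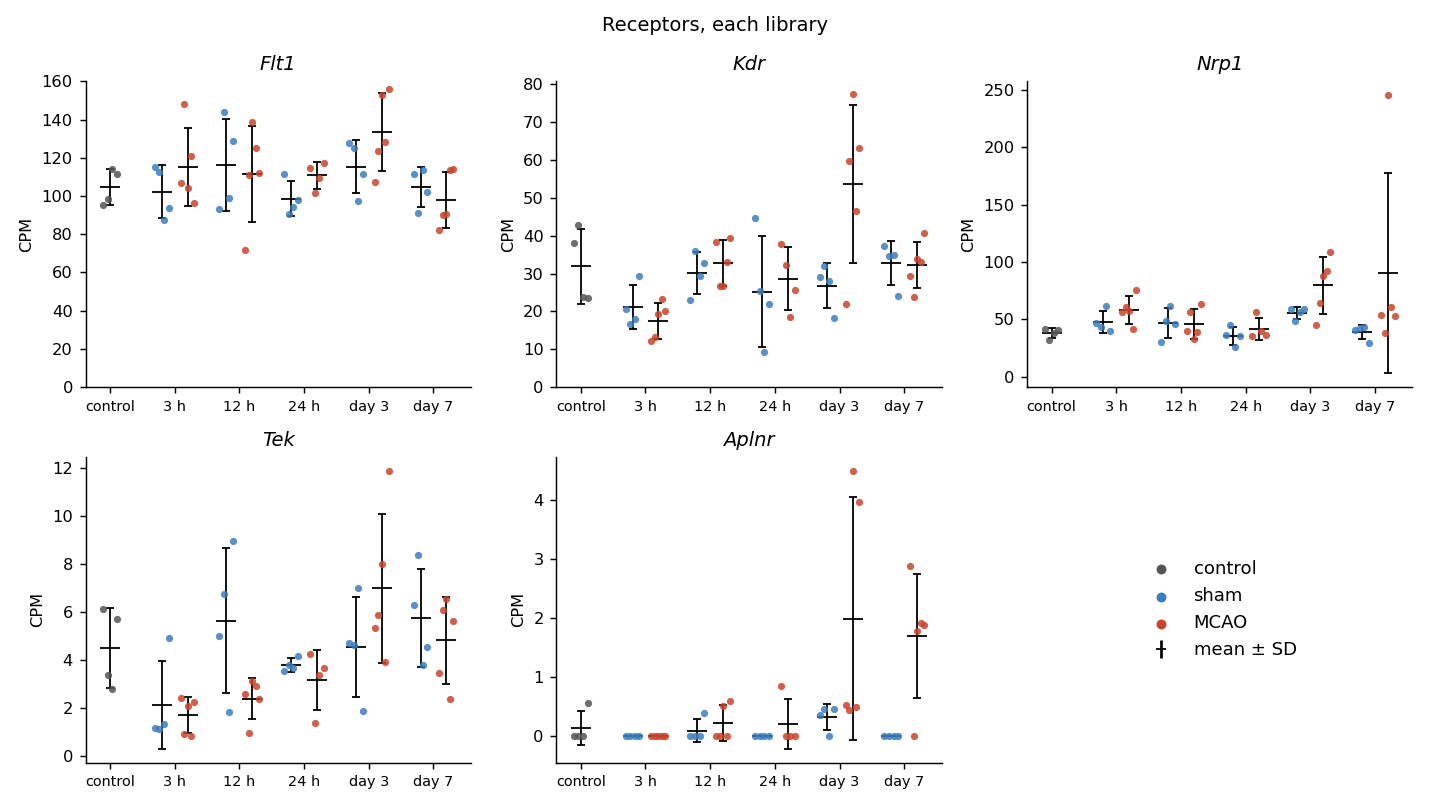
Levels in CPM (vertical axes) of the 5 receptors in every library by group (horizontal axis), with the mean ± SD as black bars. Kdr on day 3 is high in all MCAO libraries but 1, and a single MCAO library on day 7 holds 246 CPM of Nrp1.

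Apln (ENSMUSG00000037010.7, chromosome X from 48025146 to 48034853, minus strand), the peptide ligand of Aplnr, was well counted, with no library at 0. On day 3 it was at 26.2, 47.5, 59.9, 45.9 and 49.8 CPM after MCAO and at 35.9, 29.1, 19.2 and 18.7 CPM in sham. Replicate A lay within the sham range and the other 4 above it. The log2 fold change was 0.83 against sham (standard error 0.29, edgeR adjusted p = 0.0713) and 1.16 against control (standard error 0.31, edgeR adjusted p = 0.0122), neither past the threshold. On day 7 Apln was at 21.4, 23.9, 14.3, 24.5 and 19.4 CPM after MCAO and at 26.9, 27.1, 34.3 and 32.9 CPM in sham. Here every MCAO library lay below every sham library, as did 5.1% of all genes. This difference, -0.54 on the log2 scale, was not called (standard error 0.30, edgeR adjusted p = 0.275). The sham mean on day 7, 30.3 ± 3.87 CPM (SD, n = 4), was the second highest of the 11 groups, and MCAO on day 7 stood beside control, 20.7 ± 4.12 CPM (SD, n = 5) and 20.5 ± 7.43 CPM (SD, n = 4). The effect of MCAO over sham was lower on day 7 than on day 3 by 1.37 on the log2 scale in the interaction test, with an edgeR adjusted p of 0.111.

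Aplnr (ENSMUSG00000044338.9, chromosome 2 from 85136225 to 85139923, plus strand), the receptor for apelin, was close to absent from the counts until day 3. The 9 libraries of 3 h, MCAO and sham, held 0 counts, which allows up to 3 counts over each group, and no fold is given for 3 h, 12 h or 24 h. On day 3 the MCAO libraries held 1, 1, 9, 1 and 9 counts and the sham libraries 1, 1, 0 and 1. The high libraries were replicates C and E, those that were also high for Angpt2. The same replicates were the highest of their group for Kdr, Flt1 and Tek too. They also had its highest sums of endothelial, fibroblast, and microglia and macrophage markers. The ratio was 6.19 (95% exact binomial interval 1.85 to 32.4, for counting error only), with an edgeR adjusted p of 0.168. On day 7 the MCAO libraries held 5, 0, 3, 4 and 3 counts and sham 0 in all 4. That put Aplnr at 4.37-fold a floor of 3 counts set for the sham group (edgeR adjusted p = 0.0243, not called). Counting error in the MCAO counts is not part of this value. The second ligand of the receptor, Apela, had 0 to 5 counts in a group, and none of the 4 apelin partners was called.

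Dll4 (ENSMUSG00000027314.6, chromosome 2 from 119325784 to 119335962, plus strand), the Notch ligand of tip cells, was at 0.37, 6.31, 10.9, 4.12 and 2.98 CPM at 12 h after MCAO. Sham was at 0.56, 1.56, 1.85 and 1.17 CPM. All but replicate A, which held 1 count, lay above the sham libraries. At 24 h the levels were 2.55, 1.87, 6.36 and 4.89 CPM after MCAO and 0, 1.90, 1.22 and 0 CPM in sham, where replicate B of each group held about the same. The log2 fold change was 1.85 at 12 h (standard error 0.72, edgeR adjusted p = 0.203), 2.30 at 24 h (standard error 0.86, edgeR adjusted p = 0.356) and 2.09 on day 3 (standard error 0.84, edgeR adjusted p = 0.123). None was called, and on day 3 the 15 counts of replicate C were set against 5 counts in the sham group as a whole. Without replicate C the value on day 3 was 1.17, and without sham replicate C it was 2.93. At 24 h it was 3.15 without sham replicate B. Control held 2.67 ± 0.82 CPM (SD, n = 4), above the sham means of 12 h (1.29 ± 0.56 CPM), 24 h (0.78 ± 0.94 CPM) and day 3 (0.53 ± 0.67 CPM; SD, n = 4 each). Against control the log2 fold changes of Dll4 were 0.86, 0.53 and -0.09 at those times, with edgeR adjusted p-values of 0.562, 0.853 and 0.97.

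Of the receptors of Dll4, Notch1 had a log2 fold change of 0.87 on day 3 (standard error 0.27, edgeR adjusted p = 0.0368) and 1.01 on day 7 (standard error 0.29, edgeR adjusted p = 0.02), neither called. Notch4, an endothelial Notch receptor, was at 4.54 ± 3.08 CPM on day 3 after MCAO (SD, n = 5) and 2.48 ± 1.41 CPM in sham (SD, n = 4). Hey1, a target gene of Notch signalling, was at 33.2 ± 7.82 CPM and 39.5 ± 7.16 CPM in the same groups, a log2 fold change of -0.25 (edgeR adjusted p = 0.505). Of 12 Notch partners, Notch3, the receptor of pericytes and smooth muscle, rose on day 3 by 1.16 on the log2 scale (standard error 0.30, edgeR adjusted p = 0.0095), and no other was called.

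Esm1 (ENSMUSG00000042379.8, chromosome 13 from 113209659 to 113218098, plus strand), a secreted proteoglycan of tip cells, had its highest counts at 12 h. The MCAO libraries held 0, 3, 13, 6 and 6 counts and the sham libraries 2, 2, 0 and 0. In CPM the MCAO mean was 3.07 ± 2.56 (SD, n = 5) and the sham mean 0.54 ± 0.62 (SD, n = 4), and the log2 fold change was 2.497 (standard error 1.02, edgeR adjusted p = 0.227). All MCAO libraries but replicate A lay above sham. At 24 h they held 4, 2, 1 and 3 counts while the 4 sham libraries held 0. Esm1 was then at 2.67-fold a floor of 3 counts set for the sham group (edgeR adjusted p = 0.324, not called). Counting error in the MCAO counts is not part of this value either. Control held 2 counts in 1 library and 0 in the other 3. With 2 counts as the base, the ratio of 12 h MCAO to control was 9.88 (95% exact binomial interval 2.49 to 85.6, for counting error only). On day 3 and day 7 the counts per MCAO library were 0 to 3 and 0 to 2.

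**Figure D3:**
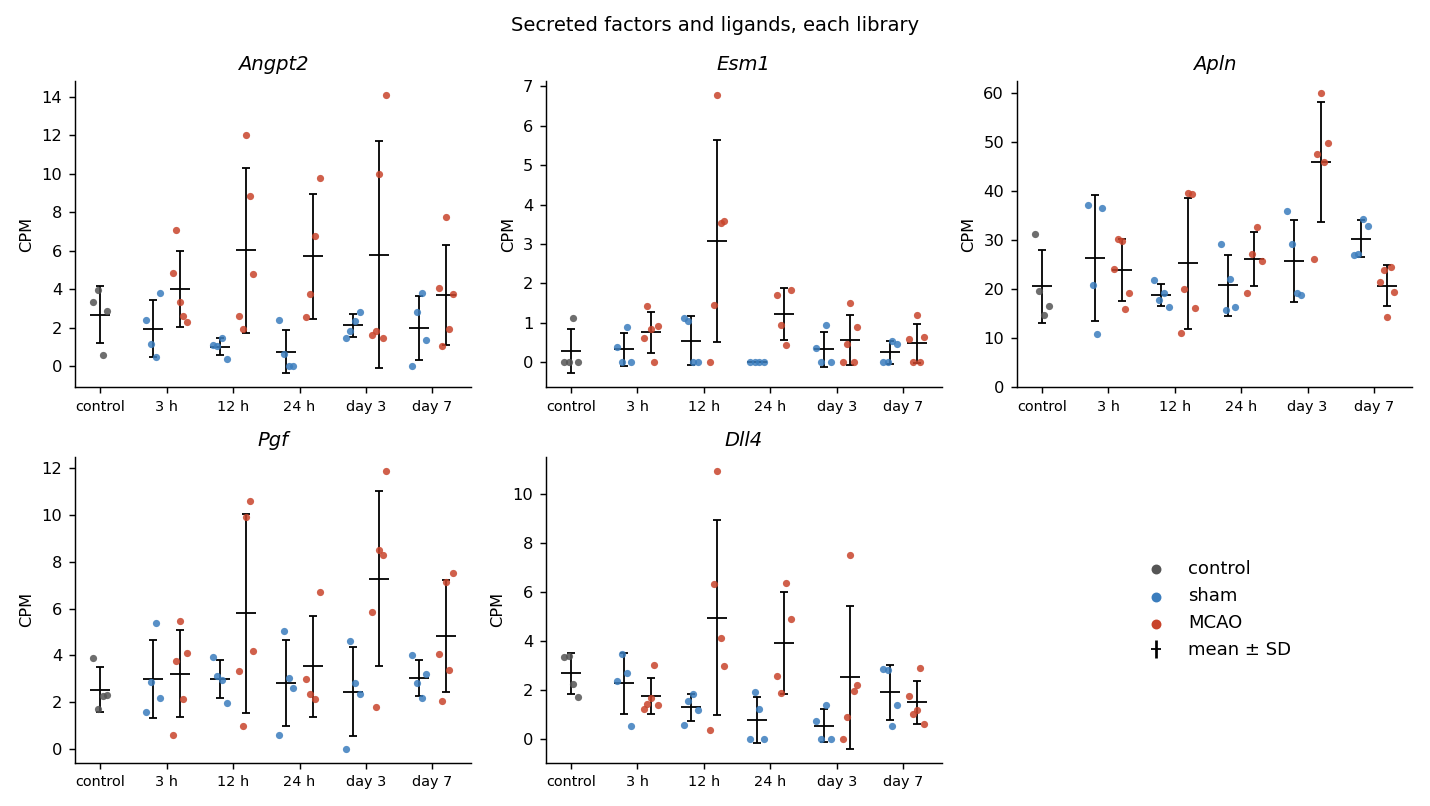
Levels in CPM (vertical axes) of the 5 secreted factors and ligands in every library by group (horizontal axis), with the mean ± SD as black bars. Angpt2 at 12 h and 24 h and Esm1 at 24 h lie above every sham library of the same time, and Apln on day 7 lies below.

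When the 11 group means of each member were put in order, neighbours differed by more than the larger of their SDs in 3 places, at the top for Apln and Kdr, both highest on day 3 after MCAO, and below the second group for Aplnr, which was highest on day 3 and day 7 after MCAO. Angpt2, Esm1 and Dll4 had their highest mean at 12 h after MCAO, Flt1, Tek and Pgf on day 3 after MCAO and Nrp1 on day 7 after MCAO. The place of Nrp1 rests on replicate C, without which its day 7 mean of 51.5 ± 9.46 CPM (SD, n = 4) would be the fourth of the 11.

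Counted over the members, 1 of 10 lay wholly above sham at 12 h (Angpt2), 2 at 24 h (Angpt2 and Esm1) and 0 at 3 h, day 3 and day 7, while 1 lay wholly below it on day 7 (Apln). The share of all genes wholly above sham was 2.27% at 3 h, 4.33% on day 3 and 5.38% on day 7 beside the shares at 12 h and 24 h given with Angpt2. The share wholly below was 1.31% at 3 h, 1.27% at 12 h, 2.1% at 24 h and 2.81% on day 3. Against the 4 control libraries, which all 5 of these comparisons share, no member was called at any time, with 2, 1, 0, 6 and 2 members at an unadjusted p under 0.05 in order of time, as were 9.15%, 16%, 11%, 19.8% and 14.9% of all genes. The shares of all genes called were 0.13% at 3 h, 0.856% at 12 h, 0.28% at 24 h, 3.1% on day 3 and 1.5% on day 7. Kdr and Tek had log2 fold changes of -0.85 (edgeR adjusted p = 0.244) and -1.38 (edgeR adjusted p = 0.281) against control at 3 h. On day 7 Nrp1 had 1.24 (edgeR adjusted p = 0.0159), and 0.43 without replicate C (edgeR adjusted p = 0.496). The nearest to a call was Apln on day 3.

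No member was called between sham and control at any time in the edgeR test. An unadjusted p under 0.05 was held by 1 member at 3 h, 1 on day 3 and 0 at the other times, and by 3.66% to 8.03% of all genes. The shares of all genes called were 0%, 0.0351%, 0.01%, 0% and 0% from 3 h to day 7. Whether the effect of MCAO over sham differed between consecutive times was tested with interaction terms in the same fit. No member was called in the edgeR test, and of all genes 0.01%, 0.01%, 0.01% and 0% were. An unadjusted p under 0.05 was held by 1, 0, 0 and 3 members and by 7.12%, 5.08%, 8.82% and 16.2% of all genes. The 3 members between day 3 and day 7 were Apln, Kdr (-1.02, edgeR adjusted p = 0.198) and Dll4 (-2.40, edgeR adjusted p = 0.29), all with smaller effects on day 7. So the different timing of the members, early for Angpt2 and Esm1 and on day 3 for Kdr, Apln and Pgf, is a description of estimates and was not shown as a difference between times.

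Among 61 partner genes of these pathways, 60 were tested and those called against sham were all higher after MCAO. Most calls over all genes were higher too, 69 of 82 at 12 h and 750 of 802 on day 3. In the average it was 900 of 977, and on day 7 413 of 698. The shares of all genes called were 0.11% at 3 h, 0.411% at 12 h and 0.0901% at 24 h. They were 4.02% on day 3, 3.5% on day 7 and 4.89% in the average. At 3 h and 24 h 0 partners were called, at 12 h 1, on day 3 8, on day 7 1 and in the average 6. At 12 h it was Adm, which encodes adrenomedullin, a vasodilator that hypoxia induces, at 12.7 ± 2.09 CPM after MCAO (SD, n = 5) and 1.42 ± 1.48 CPM in sham (SD, n = 4). Its log2 fold change of 3.08 (standard error 0.59, edgeR adjusted p = 0.0021) was also the only call among 10 hypoxia-responsive genes at any single time. The tip cell genes Cxcr4, Mcam, Robo4 and Lamb1 rose on day 3, 4 of 12 on that list. Mcam, an adhesion molecule of vessel walls, rose from 1.39 ± 1.66 CPM in sham (SD, n = 4) to 9.28 ± 3.28 CPM (SD, n = 5), by 2.61 on the log2 scale (standard error 0.58, edgeR adjusted p = 0.002). Robo4, an endothelial guidance receptor, rose by 1.95 (standard error 0.50, edgeR adjusted p = 0.0072) and Lamb1, a laminin chain of basement membranes, by 1.32 (standard error 0.35, edgeR adjusted p = 0.0098). Cxcr4, the chemokine receptor of tip cells and of many leukocytes, also rose on day 7, by 4.71 (standard error 1.10, edgeR adjusted p = 0.0042). Its sham libraries then held 2 counts in all, within the floor of 3 counts over the group. Of its 72 counts after MCAO, 44 lay in 1 library, so that the size of this fold is uncertain. Of 10 other vessel growth receptors, Eng, the TGF-beta co-receptor endoglin, rose on day 3 by 1.71 (standard error 0.40, edgeR adjusted p = 0.0032), and Ptprb, the phosphatase that restrains Tek, by 0.74 (standard error 0.19, edgeR adjusted p = 0.0084).

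Markers of endothelial cells, in which most members are expressed, were set beside them. Of 15 endothelial markers, all detected, 4 rose on day 3 (Pecam1, Cdh5, Esam and Egfl7) and the median log2 fold change of the list was 0.94. The list includes Bsg, which the study also describes in neurons, so that its sum is not a measure of endothelial cells alone. Pecam1, an adhesion molecule of endothelium, was at 104 ± 69.9 CPM after MCAO (SD, n = 5) and 25.6 ± 4.84 CPM in sham (SD, n = 4), and Cldn5, the tight junction protein, at 22.3 ± 4.61 CPM and 9.65 ± 3.23 CPM. The summed endothelial level was 544.0 CPM in replicate A, below the sham range of 564.8 to 643.2 CPM, and 839.1, 1133, 783.3 and 1095 CPM in B, C, D and E. Replicate A thus had the lowest endothelial sum of the day 3 MCAO libraries and their lowest levels of Kdr, Apln, Nrp1, Flt1 and Dll4. For Esm1 it was level with replicate D. It was not the lowest for Tek and Angpt2, where D was, or for Pgf and Aplnr, where B was. Its proliferation genes summed to 32.0 CPM, against 229.6 to 452.6 CPM in the other 4. The microglia and macrophage markers of replicate A summed to 484.2 CPM, against 835.1 to 1552 CPM in the same 4. Its fibroblast sum of 143.1 CPM was above the 97.2 CPM of replicate D. The part of these sums in the low levels of replicate A was not tested. At 12 h, when the mean levels of Angpt2, Esm1 and Dll4 after MCAO were highest, no endothelial marker rose, 2 fell (Slco1a4 and Itm2a) and the median was -0.17, with a summed level of 424.6 to 552.4 CPM after MCAO and 498.3 to 591.3 CPM in sham. No endothelial marker was called at 3 h, 24 h or day 7. With the mean endothelial marker level as a covariate, Angpt2 at 12 h was called (log2 fold change 2.96, edgeR adjusted p = 0.00738), Nrp1 on day 7 was not (1.05, edgeR adjusted p = 0.0334), and Kdr on day 3 had a log2 fold change of 0.07 (edgeR adjusted p = 0.993). On day 3 the estimates of Angpt2 (-1.03), Esm1 (-1.45), Flt1 (-0.08) and Tek (-0.15) were then below 0, none of them called. Over all genes, 214 were called at 12 h with this covariate and 82 without it. On day 7 the counts were 542 and 698, and on day 3 they were 8 and 802.

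**Figure D4:**
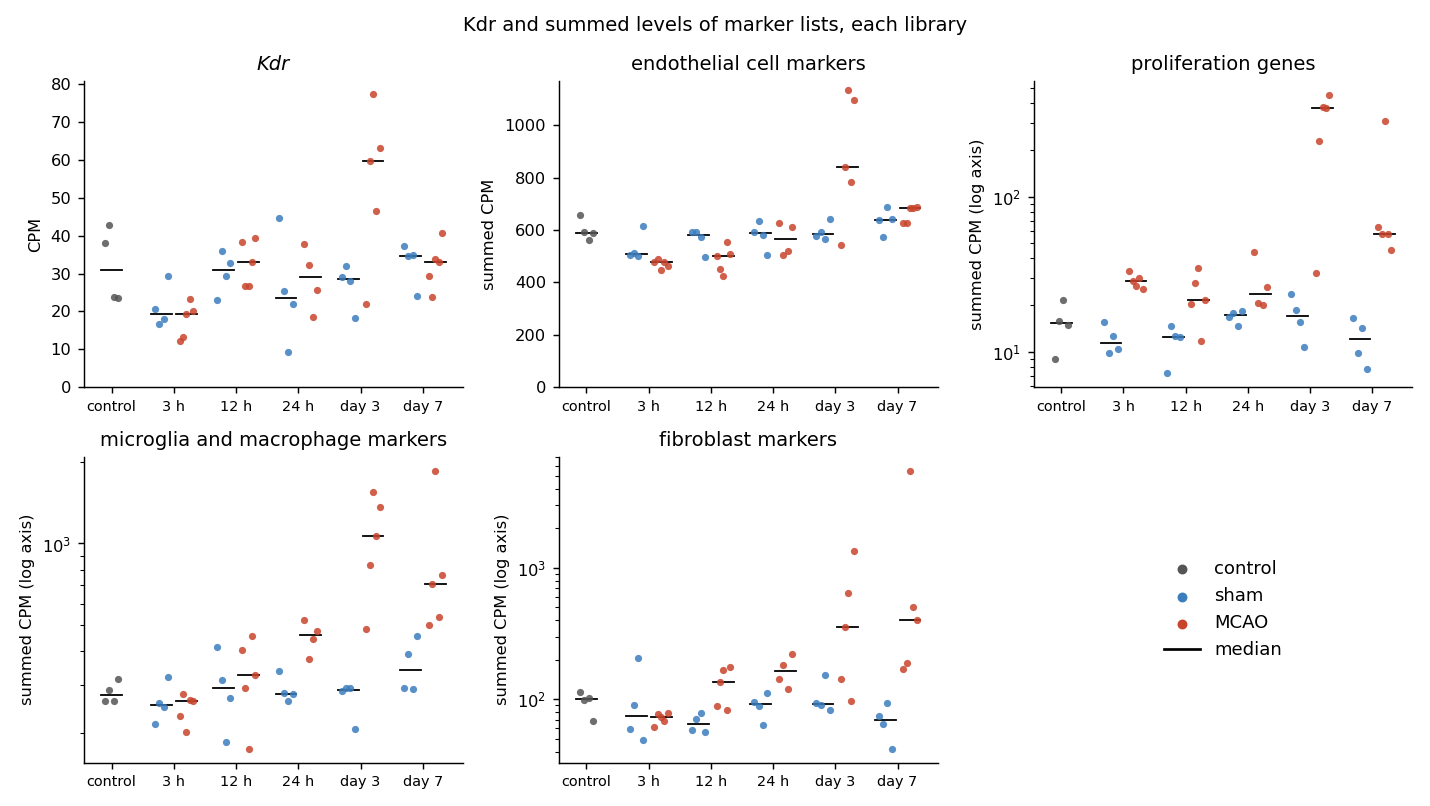
Level of Kdr and summed levels of 4 marker lists in CPM (vertical axes, logarithmic for the last 3 lists) in every library by group (horizontal axis), with black lines at the medians. On day 3 the MCAO library with the lowest Kdr level, 21.9 CPM, also has the lowest endothelial sum, 544.0 CPM, and the lowest proliferation and microglia sums. On day 7 a single MCAO library has the highest sums of proliferation, microglia and fibroblast genes.

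Other marker lists changed mostly on day 3 and day 7. Proliferation genes rose in 7 of 8 on day 3 and 6 of 8 on day 7, microglia and macrophage markers in 5 and 4 of 8, fibroblast markers in 3 and 5 of 6, astrocyte markers in 2 and 3 of 6, and blood cell markers (hemoglobins) in 3 and 4 of 5. Granulocyte markers rose in 2 of 5 tested at 12 h and on day 3, a pericyte marker (Pdgfrb, of 9) on day 7 and a smooth muscle marker (Tagln, of 5) on day 3. Of 8 neuron markers 1 fell on day 3 (Snap25) and 1 on day 7 (Rbfox3). At 12 h Gfap and Hba-a1 rose and P2ry12 fell, and at 24 h Gfap was the only gene of these lists that rose. Their part in the levels of the members was not tested.

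For the 8 members with a mean of at least 2 CPM, which leaves out Esm1 and Aplnr, the genes whose 11 group means tracked them most closely were sought among 13911 genes above the same level, by Pearson's r of log2(CPM + 1), as a description over groups that share a time course. Sar1a, a GTPase of vesicle budding, was nearest to Angpt2 (r = 0.978), and Wnk1 (0.972), a kinase of ion transport, nearest to Pgf. Next came Tex261 for Kdr (0.949), Gm2885 for Tek (0.938), Soat1, which esterifies cholesterol, for Nrp1 (0.915), Spink10 for Apln (0.902), Cic for Dll4 (0.901) and Otud7b for Flt1 (0.888). None of these 8 members was among the 3 nearest genes of another.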

How the data were processed

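RNA of 48 libraries was counted per gene by 3′ tag sequencing. Reads were trimmed by the authors, cleared of rRNA and mitochondrial sequences and mapped with STAR 2.5.2b to GRCm38 plus the ERCC spike-ins. The authors counted them per gene of Gencode vM8 (htseq-count, union mode) and deposited raw counts, 1 table per library. They also deposited 1 matrix on a log2 scale, made with DESeq2's variance-stabilizing transformation, which served here as an alternative. Where the labels' series description speaks of 3 forebrain hemispheres per timepoint, the sample labels list 4 or 5 libraries of cortical tissue, and these were followed. Groups came from the condition, time and replicate letters in the labels.

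Reads without a feature (21.1 to 30.6% of the alignments listed), ambiguous (0.343 to 0.475%) and not unique (24.0 to 37.3%) and the spike-ins were left out of library sizes and tests. Symbols came from Gencode vM21 on GRCm38, which matched 46488 of 46983 identifiers. Gene counts per library were 1522668 to 2826735. No library pair was identical.

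Genes with a total above 10 counts (19970) entered edgeR 4.0.16 (R 4.3.3; TMM, glmQLFit, glmQLFTest), in 1 fit of 11 groups and 20 comparisons, with a biological coefficient of variation of 24.9%. The fit was tested on simulated data, with changes put only into genes with a mean above 20 counts. That test did not cover changes at the low counts of Angpt2, Esm1, Aplnr, Tek, Pgf and Dll4. Calls needed an adjusted p (Benjamini-Hochberg) below 0.01 and a log2 fold change beyond 0.58 either way. For the folds of members, a group at 0 counts was set at a floor of 3 counts over the group. A base of 1 to 3 counts was used as it stood. No fold is given where both groups held 3 counts or fewer. Differences over all 10 pairs of times were added later. Promoters came from RefSeq on GRCm38.p6, and motifs were counted on both strands. Other tools were limma 3.58.1, DESeq2 1.42.0, Python 3.11.15, numpy 2.4.6, scipy 1.17.1, pandas 2.3.3 and matplotlib 3.10.9.

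The members and lists were chosen with earlier results of these data known. The text names the 10 members, 8 direct partners, up to 12 called partner genes with a mean of at least 2 CPM and the largest fold changes, the first genes of the endothelial list, and the nearest genes by correlation. Single called genes of other marker lists were named after their values were seen. The result of 1 marker list is not reported here. Tried as alternatives were DESeq2's size factors or spike-in totals for scaling, DESeq2, filterByExpr or no filter, the replicate letter as a block, the endothelial marker level as a covariate, only the groups compared, the deposited matrix tested with limma, and each library left out.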

Additional observations from a re-analysis of the deposited data

Results flagged for a closer look

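In 110 sets the highest or lowest library was tested for a gap from the others by Dixon's criterion. Each set was a member in a group of 4 or 5 libraries. Chance alone passes the criterion in about 1 set in 20 for normally distributed values. That rate does not hold for sets of few counts, where many libraries are at 0. The criterion was passed in 7 sets. Nrp1 in replicate C on day 7 after MCAO stood at 246 CPM. Tek in sham replicate D at 3 h stood at 4.91 CPM, from 9 counts, while the other 3 libraries held 2 or 3 counts. Dll4 in MCAO replicate D at 3 h stood at 3.02 CPM, from 7 counts, while the other 4 held 2 to 4 counts. The other 4 rested on 1 or 2 counts in a group otherwise at 0, for Esm1 in control replicate C (1.13 CPM) and for Aplnr in control replicate D (0.571 CPM), sham replicate D at 12 h (0.39 CPM) and MCAO replicate A at 24 h (0.85 CPM).

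The difference between times that was flagged was that of Apln. Its effect of MCAO over sham on day 7 minus that on day 3 was -1.37 on the log2 scale (unadjusted p = 0.00211, edgeR adjusted p = 0.111). On day 7 every MCAO library lay under every sham library, while on day 3 all but 1 MCAO library lay above them. Over all 10 pairs of times and 10 members, 100 differences, the smallest edgeR adjusted p was 0.108. It was that of Nrp1 between 12 h and day 7, and Kdr between 3 h and day 3 had 0.114, so Apln was not alone.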

How the results depend on the processing

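Over 2276 values of members under the alternatives, 2244 kept their side of the threshold (84 of these, called in neither, had the other sign), 21 passed it in addition, 11 no longer passed it and none turned while called. Against sham, the count of called members on day 3 was 0, and 1 (Kdr) with DESeq2 or with no filter, and 0 to 1 when each library was left out. In the average over times it was 1, but 2 with DESeq2 (Angpt2 and Dll4), 0 with the deposited matrix, where Angpt2 had a difference of 0.51 under the fold threshold (limma adjusted p = 0.000372), and 1 to 2 with a library left out. On day 7 it was 1 (Nrp1), but 0 with spike-in scaling, with the replicate block, with the endothelial covariate and with only the groups compared, and 0 to 1 with a library left out. The deposited matrix gave Aplnr in place of Nrp1. At 12 h it was 0, and 1 (Angpt2) with the endothelial covariate, which raised the calls over all genes from 82 to 214. Against control on day 3 it was 0, but 1 (Apln) with DESeq2, filterByExpr or the deposited matrix, 2 (Apln and Nrp1) with no filter and 0 to 2 with a library left out. On day 7 it was 0, but 1 (Nrp1) with DESeq2 or no filter and 0 to 1 with a library left out. Over all genes the counts of calls moved as well. Against sham, day 3 had 802, and 1033 with DESeq2 and 931 with no filter. The average had 977, and 1070 with DESeq2 and 372 with the deposited matrix. Day 7 had 698, and 489 with spike-in scaling, 602 with the replicate block and 542 with the endothelial covariate. It had 302 with only the groups compared and 643 with the deposited matrix. Against control, day 3 had 619, and 861 with DESeq2, 689 with filterByExpr, 773 with no filter and 647 with the deposited matrix. Day 7 against control had 300, and 463 with DESeq2 and 461 with no filter. The cause of these moves was not tested. For Nrp1 on day 7 against sham, leaving out any sham library also ended the call (edgeR adjusted p 0.0172 to 0.0645).

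The labels do not say whether a replicate letter links a sham and an MCAO library, and libraries were treated as unpaired. Weak correlations cannot exclude such a link. Of 20 pairs of sham and MCAO libraries with 1 letter, 5 correlated above 0.1 (range -0.21 to 0.127), and 7 of 20 libraries correlated best with their own letter. Under the replicate block the log2 fold change of Nrp1 on day 7 was 1.08 (edgeR adjusted p = 0.0192). Spike-in scaling moved the median of all genes against sham to -0.22 on day 3, 0.14 on day 7 and 0.14 at 24 h. Counts of 70 for Esm1 and 45 for Aplnr over all libraries limit what their tests can show.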
